A study of Mus musculus with 4 samples.

Results

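The E proteins and the inhibitors that compete for them were examined in proliferating mouse myoblasts, precursor cells of muscle cultured from enzyme-digested hind limbs. The 9 genes were taken by name from a deposited table of 55573 genes. They are the E protein genes Tcf3, Tcf4 and Tcf12, the inhibitor genes Id1, Id2, Id3 and Id4, and the genes Twist1 and Twist2. The sample titles call the libraries Polysome-Seq, while the extraction text describes ribosome profiling, in which RNase I digests the RNA that ribosomes do not shield. The values are called ribosome-protected signal here after that text, and if the titles are right they would instead come from RNA of polysomes. The time in cycloheximide, which stalls ribosomes on mRNA, is given as 10 min in the labels and 1 min in the design text, and does not settle which. Signal is given as RPKM, the reads of a gene divided by the kilobases of its gene model and by a library size that the authors set.

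There were 4 libraries, 2 labelled WT and 2 labelled eIF5A knockout (eIF5A-KO), from 3-week-old mice, and all were collected on day 2 of culture in growth medium with FGF. Eif5a codes for eIF5A, a translation factor carrying the amino acid hypusine, which is made from spermidine. In the study's mice, Cre under the Pax7 promoter removes floxed Eif5a after tamoxifen, so cells in the culture that never expressed Pax7 would keep the gene. The study names littermates as WT controls and gives their genotype in more than one way, and both labelled groups were treated alike in culture. The study calls its ribosome profiling and its polysome sequencing duplicate experiments. Nothing in the labels says that the replicates came from separate cultures, so p-values measure only the spread between these libraries, which may be technical.

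MyoD and its relatives are basic helix-loop-helix (bHLH) transcription factors. They bind DNA at E-box motifs of muscle genes as dimers with an E protein, and the E proteins are made by many kinds of cell. Id proteins have the helix-loop-helix that makes the dimer but lack the basic region that touches DNA, so an E protein held by an Id protein cannot serve MyoD. Twist proteins are bHLH factors of mesenchymal cells that also take up E proteins and can hold back MyoD. Id genes are known targets of BMP signalling through Smad proteins, and they are typically high in growing cells and low in differentiating muscle.

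Because eIF5A helps ribosomes through consecutive prolines, the proline codons of the members were read first. The coding sequences were those of the principal transcripts in GENCODE M21 (build GRCm38), whose spans for all 9 genes equalled those in the table. A run of 3 or more prolines was present in 2 of the 9 members, Tcf4 (a run of 3) and Id4 (a run of 4), and in 25.3% of the 9847 tested protein-coding genes with a coding sequence. The longest run was 2 prolines in Tcf3, Tcf12 and Id3, and 1 in Id1, Id2, Twist1 and Twist2. The stretches below show the longest run (the first, where a gene has several of that length) of the members with 2 or more, Tcf4 left out, in the coding direction from 5′ to 3′, with the proline codons in capitals.
Tcf3: cacagcagcctgCCGCCTtccacgttccta
Tcf12: gcgatgttttctCCACCTgttaatagtggg
Id3: ccggcgcctggaCCCCCGgacggtccgcat
Id4: ctgagacagCCGCCACCGCCCgcgccacct
The capitals lie at chr10:80421116-80421121 (minus strand, codons 90 and 91) in Tcf3, chr9:72109734-72109739 (minus strand, codons 29 and 30) in Tcf12, chr4:136144149-136144154 (plus strand, codons 91 and 92) in Id3, and chr13:48261849-48261860 (plus strand, codons 118 to 121) in Id4. Id4, with the longest run, was the member with the second fewest reads, as given further on.

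The depth set how much could be seen of each member. The libraries held between 642429 and 704006 reads, recovered as whole reads from the RPKM values, and of these 2750 (0.104%) fell on the 9 members. Id3 alone took 49.4% of those reads. Per library the tested members had from 11 reads (Twist1) to 414 reads (Id3). Protein-coding genes took 33.9% and 41.5% of the WT reads and 59.2% and 65.4% of the eIF5A-KO reads, and the authors' library sizes ran from 471136 to 602863 in WT and from 807705 to 906990 in eIF5A-KO. The targeted gene did not fall under the knockout label. Eif5a had 34.9 and 65.2 RPKM in WT and 60.3 and 59.4 RPKM in eIF5A-KO, and limma gave an adjusted p of 0.839 for its log2 fold change of 0.32 ± 0.48 (standard error). Every direction below is therefore that of the libraries labelled eIF5A-KO relative to WT.

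The inhibitor Id3 was by far the most strongly read member, and its signal was of like size in both groups. Its gene lies on chromosome 4 (136143497 to 136145755, ENSMUSG00000007872, plus strand, 3 exons). The signal was 239.9 and 323.5 RPKM in WT, from 259 and 273 reads, and 254.9 and 284.8 RPKM in eIF5A-KO, from 414 and 412 reads. Both eIF5A-KO values lay between the WT values. Group means were 281.7 ± 59.2 and 269.8 ± 21.2 RPKM (SD, n = 2 each). The log2 fold change, on the log2(RPKM + 1) scale used for every test, was -0.05 with a 95% confidence interval from -1.29 to 1.19 (adjusted p 0.980 by limma). That interval runs from 0.409-fold to 2.29-fold, so a change of either size would not have been resolved. In WT, Id3 ranked above 99.7% of the 9877 tested protein-coding genes.

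Id1, the other abundant inhibitor, also overlapped between the groups. Its gene (chromosome 2, 152736251 to 152737410, ENSMUSG00000042745, plus strand, 2 exons) had 94.4 and 129.9 RPKM in WT and 95.05 and 94.99 RPKM in eIF5A-KO, from 66 and 71 reads and from 100 and 89 reads. WT replicate 2 was the high value and the other 3 libraries were nearly level. Mean RPKM was 112.1 ± 25.1 in WT and 95.02 ± 0.0402 in eIF5A-KO (SD, n = 2 each). By limma the change was -0.22 on the log2 scale (95% confidence interval -1.34 to 0.90, adjusted p 0.885), and it was 0.01 without WT replicate 2.

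Id2 had the log2 fold change of largest size of the tested members in the main fit, though Twist1 exceeded it (-1.02 against -0.80) without WT replicate 1. With every library scaled to the same sum of reads, Tcf4 (0.60) and Id3 (0.57) exceeded Id2 (-0.53) in size. Relative to the median of all tested genes in that scaling, 0.47, they did not (Tcf4 0.12, Id3 0.09 and Id2 -0.998). Id2 codes for another inhibitor of the family and lies on chromosome 12 (25093799 to 25097140, ENSMUSG00000020644, minus strand, 3 exons). It had 21.1 and 13.9 RPKM in WT, from 31 and 16 reads, and 5.88 and 9.65 RPKM in eIF5A-KO, from 13 and 19 reads. Both eIF5A-KO values lay under both WT values, although the read numbers of WT replicate 2 and eIF5A-KO replicate 2 were close. On average Id2 had 17.5 ± 5.06 RPKM in WT and 7.76 ± 2.67 RPKM in eIF5A-KO (SD, n = 2 each). Its log2 fold change was -1.09 ± 0.44 (standard error), with a 95% confidence interval from -2.17 to -0.00492. The unadjusted p was 0.0493 and the adjusted p 0.672 by limma, so Id2 failed the adjusted threshold. With any single library left out the change lay between -1.40 and -0.77, and the unadjusted p was then over 0.05 in each case.

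Id4, the inhibitor best known from the nervous system, was near the limit of detection. Its gene (chromosome 13, 48261228 to 48266026, ENSMUSG00000021379, plus strand, 3 exons) had 0 reads and 1 read in WT and 2 and 3 reads in eIF5A-KO, which is 0 and 0.551 RPKM against 0.573 and 0.965 RPKM. No library was over the floor of 3 reads, the limit that a count of 0 allows, so no fold is given. Its exons overlap those of A330033J07Rik and Gm49291 on the opposite strand, both at 0 reads in all 4 libraries.

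**Figure D1:**
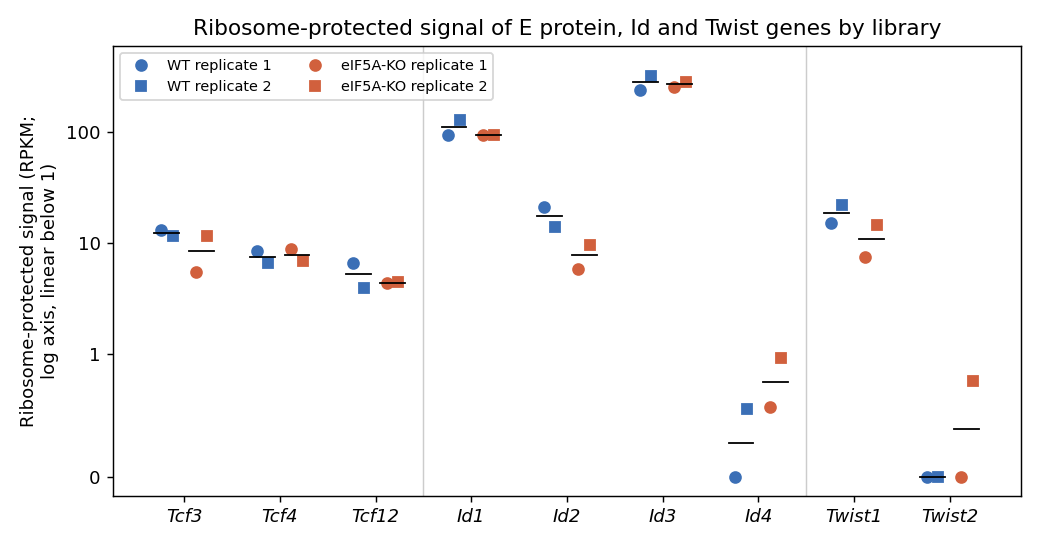
Ribosome-protected signal in RPKM (log axis, linear below 1) of the 9 genes in each of the 4 libraries, with WT in blue, eIF5A-KO in orange, circles for replicate 1, squares for replicate 2 and black bars for group means. The eIF5A-KO points lie under both WT points for Id2 (5.88 and 9.65 against 21.1 and 13.9 RPKM) and for Twist1 (7.45 and 14.4 against 15.3 and 22.2 RPKM), while Id3 stays near 281.7 and 269.8 RPKM.

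Among the E proteins, Tcf3 was level in 3 libraries and low in 1. Tcf3 codes for the splice forms E12 and E47 (chromosome 10, 80409514 to 80433647, ENSMUSG00000020167, minus strand, 19 exons). The signal was 13.1 and 11.6 RPKM in WT, from 32 and 22 reads, and 5.46 and 11.6 RPKM in eIF5A-KO, from 20 and 38 reads. Only eIF5A-KO replicate 1 stood below the other 3 libraries. Tcf3 averaged 12.4 ± 1.12 RPKM in WT and 8.55 ± 4.38 RPKM in eIF5A-KO (SD, n = 2 each). Limma put the log2 fold change at -0.56 (95% confidence interval -1.69 to 0.57, adjusted p 0.723), a value of -0.08 without eIF5A-KO replicate 1 and -1.04 without eIF5A-KO replicate 2.

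Tcf12, which codes for HEB, overlapped between the groups. The gene (chromosome 9, 71842688 to 72111871, ENSMUSG00000032228, minus strand, 21 exons) had 6.62 and 3.96 RPKM in WT, from 62 and 29 reads, and 4.33 and 4.46 RPKM in eIF5A-KO, from 61 and 56 reads. The eIF5A-KO libraries lay between the WT libraries. The difference on the log2 scale was -0.19 (95% confidence interval -1.16 to 0.78, adjusted p 0.886 by limma), and 0.12 without WT replicate 1.

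Tcf4, which codes for E2-2 (ENSMUSG00000053477, chromosome 18, plus strand, 20 exons), was alone among the tested members in a value above 0. It had 8.42 and 6.67 RPKM in WT, from 139 and 86 reads, and 8.78 and 6.96 RPKM in eIF5A-KO, from 218 and 154 reads. The groups overlapped. Its log2 fold change was 0.05 (95% confidence interval -0.87 to 0.98, adjusted p 0.971 by limma), and it fell to -0.09 without WT replicate 2 and likewise without eIF5A-KO replicate 1. The run of 3 prolines in Tcf4 thus stood beside a signal in which no difference was detected at this depth.

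Twist1 (chromosome 12, 33957671 to 33959829, ENSMUSG00000035799, plus strand, 2 exons) had lower values in eIF5A-KO that did not pass the test. It had 15.3 and 22.2 RPKM in WT, from 15 and 17 reads, and 7.45 and 14.4 RPKM in eIF5A-KO, from 11 and 19 reads. The groups did not overlap in RPKM, the gap between WT replicate 1 and eIF5A-KO replicate 2 being small, and they did overlap in reads. Twist1 averaged 18.7 ± 4.87 RPKM in WT and 10.9 ± 4.95 RPKM in eIF5A-KO (SD, n = 2 each). A log2 fold change of -0.77 was fitted (95% confidence interval -1.92 to 0.39, adjusted p 0.697 by limma), which was -0.33 without eIF5A-KO replicate 1 and -1.20 without eIF5A-KO replicate 2. Twist2 (chromosome 1, 91801461 to 91848028, ENSMUSG00000007805, plus strand, 2 exons) was listed at 0 in 3 libraries and had 2 reads, 0.780 RPKM, in eIF5A-KO replicate 2. Its exons overlap those of Gm29100 on the opposite strand, which had no reads in any library.

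Of the 9 members, 7 reached a mean of 1 RPKM over the 4 libraries and were tested, and Id4 and Twist2 were not. At an adjusted p under 0.05 by limma, 0 of the 7 passed, where 0.106% of the 11363 tested genes did (0.0968% with lower and 0.0088% with higher values). At an unadjusted p under 0.05, 1 of the 7 was lower (Id2) and 0 higher, against 4.46% lower and 2.86% higher of all tested genes, or 7.32% in either direction. With a change over 2-fold asked for as well, it was again 1 of 7 lower and 0 higher, against 4.29% and 2.67%. The groups did not overlap, with eIF5A-KO the lower, for 2 of the 7 (Id2 and Twist1), against 20.3% of all tested genes. In the other direction it was 0 of 7, against 20.1%. In all, 6 of the 7 had a log2 fold change below 0 and 1 above 0, of which Tcf12, Id1 and Id3 turned to 0.31, 0.39 and 0.57 on scaling every library to the same read sum. That scaling moved the median of all tested genes from 0.00026 to 0.47, and relative to it Tcf12 stood at -0.16, Id1 at -0.08 and Id3 at 0.09. It also turned the split of all tested genes at an unadjusted p under 0.05 from 507 lower and 325 higher to 170 lower and 1684 higher. The median of the 7 was -0.22 without it. With limma-voom on the recovered reads 1 of the 7 passed at an unadjusted p under 0.05 and 0 at an adjusted p under 0.05.

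**Figure D2:**
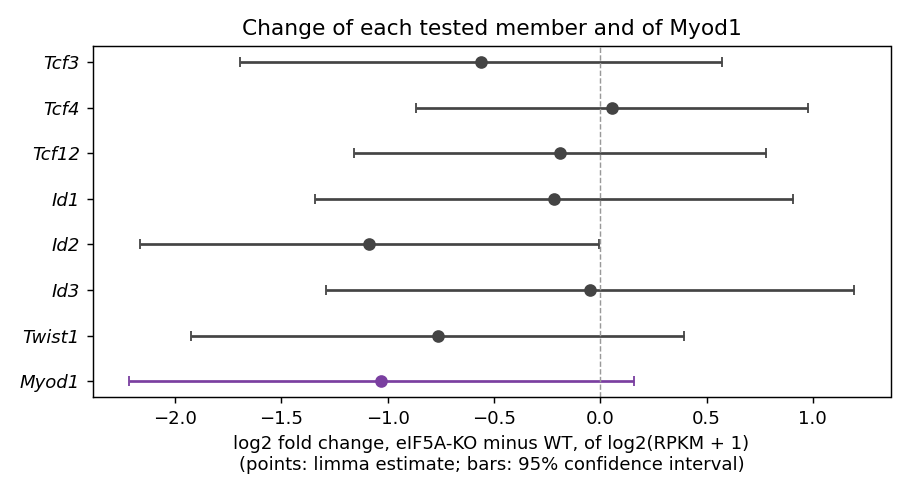
Log2 fold change of eIF5A-KO minus WT on the log2(RPKM + 1) scale for the 7 tested members and for Myod1 (purple), with points for the limma estimate and bars for the 95% confidence interval. The interval of Id2, from -2.17 to -0.00492, is the only one that ends short of 0, and the estimates of Id3 (-0.05) and Tcf4 (0.05) sit at 0.

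Several of these values moved when a trend with base composition was taken out. Coding GC was 71.4% in Twist1, 64.9% in Id1, 63.6% in Id3, 63.2% in Tcf3, 54.98% in Id2, 54.3% in Tcf4 and 48.5% in Tcf12. With the trend of the change on coding GC removed, Tcf3 went from -0.56 to -0.11 and Twist1 from -0.77 to -0.0491 on the log2 scale. Tcf12 went the other way, from -0.19 to -0.40. Id1 and Id3 turned to 0.29 and 0.42, and Id2 was -1.06. None of the 7 passed at an adjusted p under 0.05 in that fit by limma, and 1 passed at an unadjusted p under 0.05.

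The order of the members by level depended on the length that reads were divided by. Per kilobase of gene model, the WT means ran from Id3 (281.7 RPKM) and Id1 (112.1 RPKM) through Twist1 (18.7 RPKM), Id2 (17.5 RPKM), Tcf3 (12.4 RPKM), Tcf4 (7.54 ± 1.24 RPKM, SD, n = 2) and Tcf12 (5.29 ± 1.88 RPKM, SD, n = 2) to Id4 and Twist2. Twist1 and Id2 did not differ beyond their spread. Tcf4 was above Tcf12 in each library, though their SD ranges in WT overlapped. The values were 8.42 against 6.62 and 6.67 against 3.96 RPKM in WT, and 8.78 against 4.33 and 6.96 against 4.46 RPKM in eIF5A-KO. The gene model of Tcf4 is 27382 bases long, 13.6 times its coding sequence of 2010 bases. That of Tcf12 is 7.33 times its coding sequence, and that of Tcf3 2.08 times.

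Divided by the coding length, Tcf3 went from the highest E protein to the lowest, and Tcf4 stayed above Tcf12. With the kilobases of coding sequence as divisor, and the library sizes kept, Tcf4 had 102.8 ± 16.9 RPKM in WT (SD, n = 2), Tcf12 had 38.8 ± 13.8, and Tcf3 had 25.7 ± 2.32. The values of Tcf4 were 114.7 and 90.8 in WT and 119.6 and 94.9 in eIF5A-KO, all above those of both other E proteins in every library. Tcf4 gave from 60.2% to 63.1% of the summed E protein signal in WT on this scale, against 29.9% and 30.0% per gene model. Among the inhibitors Id3 led on both scales, with 1413 ± 296.8 in WT per coding length, followed by Id1 (293.0 ± 65.6) and Id2 (106.2 ± 30.7, SD, n = 2 each). The WT values of Id2 and Tcf4 did not differ beyond their spread on this scale. The table does not say where in a gene its reads fell, so the coding scale rests on the premise that they lie in the coding sequence. The change of a single gene between groups is the same on both scales, apart from the pseudocount, but that of a sum over genes is not.

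**Figure D3:**
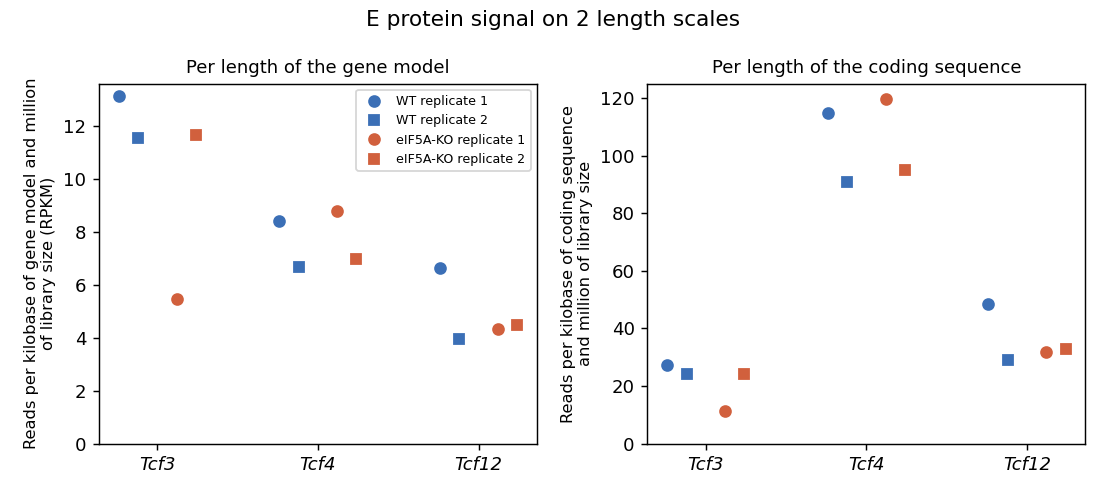
Signal of the E protein genes Tcf3, Tcf4 and Tcf12 in each of the 4 libraries (WT blue, eIF5A-KO orange, circles replicate 1, squares replicate 2), per kilobase of gene model on the left and per kilobase of coding sequence on the right, both in RPKM. Tcf3 leads on the left in 3 libraries, and on the right Tcf4 leads in every library, at 90.8 to 119.6.

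Signal was then summed by role, to set the partners of MyoD against their inhibitors. The summed E protein signal was 28.2 and 22.2 RPKM in WT and 18.6 and 23.1 RPKM in eIF5A-KO. The summed Id signal was 355.3 and 467.9 RPKM in WT and 356.4 and 390.4 RPKM in eIF5A-KO, of which Id3 gave 67.5% and 69.1% in WT and 71.5% and 73.0% in eIF5A-KO. Id signal thus exceeded E protein signal 12.6 and 21.1 times in WT and 19.2 and 16.9 times in eIF5A-KO. The log2 ratio of E protein to Id signal was -4.03 ± 0.52 in WT and -4.17 ± 0.13 in eIF5A-KO (SD, n = 2 each), and the groups overlapped. The difference of -0.14 ran from -0.52 to 0.23 with any single library left out, turning sign without WT replicate 1. The ratio of summed signal therefore differed by less than the spread between the WT libraries, which does not show that it was unchanged. Amounts of protein were not measured here. Per coding length, Id signal was 1578 and 2051 RPKM in WT and 1567 and 1743 RPKM in eIF5A-KO, and the log2 ratio was -3.44 ± 0.55 against -3.39 ± 0.18 (SD, n = 2 each), a difference of 0.05 in the other direction.

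Set against Myod1 itself, both classes stood higher in eIF5A-KO. Myod1 had 139.9 and 117.5 RPKM in WT and 48.6 and 79.8 RPKM in eIF5A-KO (-1.03 ± 0.48 on the log2 scale, standard error, with an adjusted p of 0.676 by limma). Id signal was 2.54 and 3.98 times that of Myod1 in WT and 7.34 and 4.89 times in eIF5A-KO. E protein signal was 0.201 and 0.189 times that of Myod1 in WT and 0.382 and 0.289 times in eIF5A-KO. These multiples depend on the length used as divisor. Per coding length, E protein signal was 0.698 and 0.628 times that of Myod1 in WT and 1.72 and 0.975 times in eIF5A-KO. Id signal was then 5.78 and 8.95 times that of Myod1 in WT and 16.5 and 11.2 times in eIF5A-KO. The groups did not overlap in either ratio, but both have Myod1 as divisor, which itself did not overlap, like 20.3% of all tested genes in that direction. The log2 ratio of Id to Myod1 signal was 1.67 ± 0.46 in WT and 2.58 ± 0.41 in eIF5A-KO (SD, n = 2 each), a difference of 0.91 that lay between 0.59 and 1.24 with any single library left out and was 0.92 per coding length. No p-value is given for these ratios, since the members were chosen with earlier results known. The summed levels of E protein and Id signal overlapped between groups. In such bulk libraries, fewer myoblasts and less signal per myoblast cannot be told apart.

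**Figure D4:**
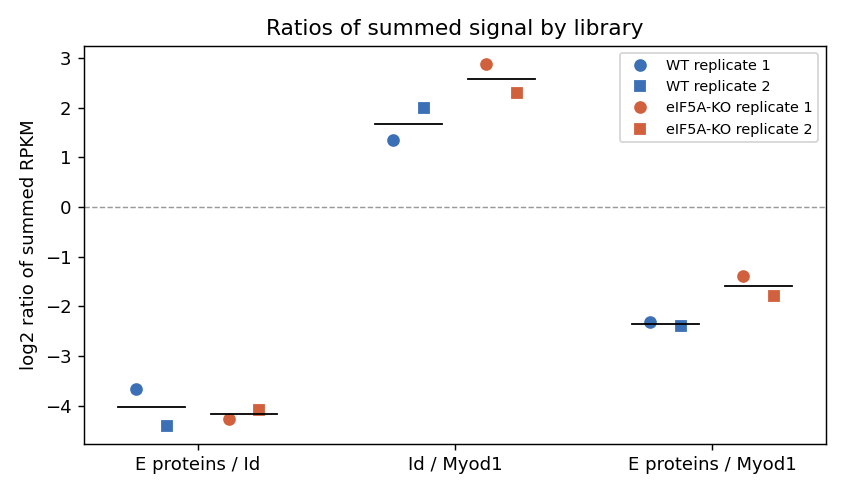
Log2 ratios of summed RPKM in each library (WT blue, eIF5A-KO orange, circles replicate 1, squares replicate 2, black bars group means) for E protein to Id, Id to Myod1 and E protein to Myod1 signal. The groups overlap in the first ratio (means -4.03 and -4.17) and stand apart in the second (1.67 and 2.58) and the third (-2.36 and -1.59).

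Other genes of the pathway were taken from fixed lists. The BMP and Smad genes, which carry the signal that induces Id genes, had 19 of 22 tested, of which 11 were below 0 and 8 above 0, or 10 and 7 without the 2 that reached the minimum mean through 1 group only. Their median change was -0.41, or -0.08 without WT replicate 1 and 0.16 with the same sum of reads, which moved all genes by 0.47. At an unadjusted p under 0.05, 1 of the 19 was lower and 1 higher, against 4.46% lower and 2.86% higher of all tested genes. The lower was Smad6, an inhibitory Smad that holds back BMP signalling and is itself induced by it. It had 136.6 and 351.0 RPKM in WT and 34.1 and 17.0 RPKM in eIF5A-KO, a change of -3.13 ± 0.64 (log2, standard error) that did not pass by limma (adjusted p 0.506). It passed by limma-voom on the recovered reads (log2 fold change -3.20, adjusted p 0.00625). The Id genes stood beside it at -1.09 (Id2), -0.22 (Id1) and -0.05 (Id3), and none passed at an adjusted p under 0.05 by limma.

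The other repressors and modifiers of MyoD lay on both sides of 0. Of 16, 13 were tested, 8 below 0 and 5 above 0, 3 of the former (Bhlhe41, Heyl and Mdfi) reaching the minimum mean only through WT. The median of the 13 was -0.11, and 0 passed at an unadjusted p under 0.05. That median was 0.25 with a minimum mean of 5 RPKM. With the same sum of reads it was 0.33, or -0.14 relative to all tested genes. Without 1 library it ran from -0.44 (eIF5A-KO replicate 1) to 0.04 (WT replicate 1). Hey2 and Tcf21 were listed at 0 in every library. Hes1, a Notch target that represses myogenic genes, varied within groups, at 9.77 and 32.3 RPKM in WT and 15.2 and 31.6 RPKM in eIF5A-KO. Snai1, a zinc finger repressor that competes for E-boxes, had 20.5 and 13.1 RPKM in WT and 13.6 and 10.7 RPKM in eIF5A-KO (log2 fold change -0.41, adjusted p 0.752 by limma). Of the 12 coactivators 11 were tested, 8 below 0 and 3 above 0 (8 and 2 without the gene that reached the minimum mean only through eIF5A-KO). Their median was -0.14, with 0 at an unadjusted p under 0.05. It was 0.36 with the same sum of reads, or -0.11 relative to all tested genes. Without 1 library it ran from -0.30 to -0.05, and it was -0.29 with the GC trend removed. Smarca4, the ATPase of the BAF chromatin remodelling complex, had a log2 fold change of 0.03, and Mef2d, a partner of MyoD at muscle promoters, had -0.82 (adjusted p 0.985 and 0.697 by limma).

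Most of the myogenic bHLH factors and known targets of their dimers had values below 0, and none passed at an adjusted p under 0.05 by limma. Of the 4 factors Myod1, Myf5, Myog and Myf6, 3 were tested and all 3 were below 0, with a median of -2.09 (-1.29 without WT replicate 1, and -3.93 with a pseudocount of 0.1), and Myf5 and Myog passed at an unadjusted p under 0.05. Myf5, whose value is that median, reached the minimum mean only through WT and so had to differ. These rest on few reads, 8 and 4 in WT and 2 and 0 in eIF5A-KO for Myf5, and 82 and 3 in WT and 1 and 2 in eIF5A-KO for Myog. The fitted log2 fold change of Myog went from -3.36 to -1.29 without WT replicate 1. Of 20 targets 18 were tested, 16 below 0 and 2 above 0, with a median of -1.32 that was -0.94 without WT replicate 1. At an unadjusted p under 0.05, 8 were lower and 0 higher. Of the 18, 4 (Chrng, Ckm, Myl1 and Tnnt3) reached the minimum mean only through WT and so had to be lower. Of the other 14, 12 were below 0 and 2 above 0, 6 were lower at an unadjusted p under 0.05 and 0 higher, and the median was -1.07. All tested genes gave 4.46% lower and 2.86% higher.

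By the rule for naming genes, these targets were Myog, Actc1, Chrng and Chrna1. Actc1, the cardiac actin of developing muscle, took 62 and 5 WT reads and 3 and 4 eIF5A-KO reads, and its log2 fold change of -2.65 went to -1.10 without WT replicate 1. For Chrng, the fetal subunit of the muscle acetylcholine receptor, WT gave 18 and 6 reads and eIF5A-KO 1 and 0. Chrna1, another subunit of that receptor, was even within WT but not within eIF5A-KO, at 17.4 and 16.0 RPKM in WT and 2.26 and 4.52 RPKM in eIF5A-KO. Chrna1 stood at -2.06 ± 0.42 on the log2 scale (standard error, limma adjusted p 0.506) and passed by limma-voom (adjusted p 0.0403). These lists and their genes were chosen with earlier results of these data known, so the counts are a description.

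**Figure D5:**
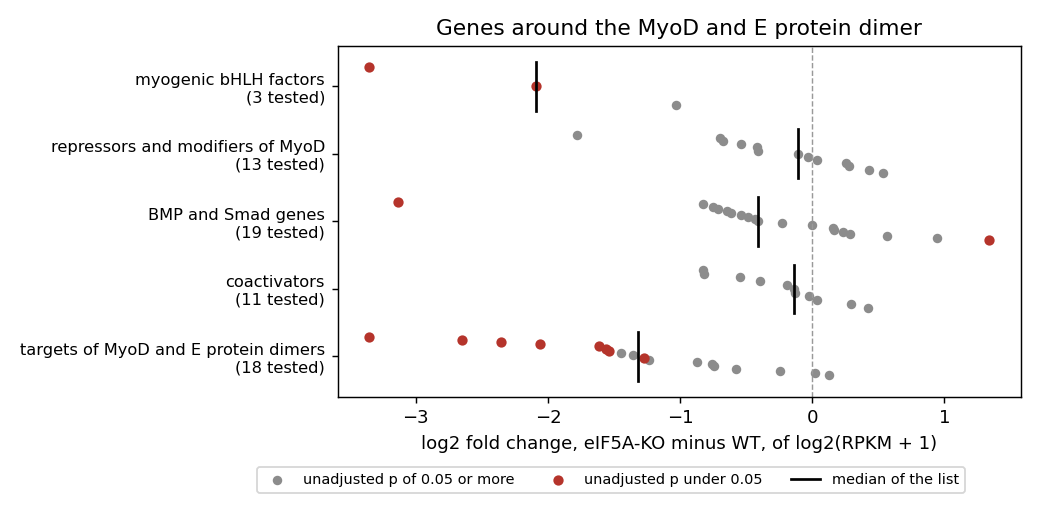
Log2 fold change of eIF5A-KO minus WT on the log2(RPKM + 1) scale for every tested gene of 5 lists around the MyoD and E protein dimer, with black lines for list medians and red points for an unadjusted p under 0.05. The medians are -2.09 for myogenic bHLH factors, -0.11 for repressors and modifiers, -0.41 for BMP and Smad genes, -0.14 for coactivators and -1.32 for targets of the dimers. Myog is drawn in the first and the last list.

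Id and Twist genes are also expressed by other cells that such cultures can hold, so their markers are given beside the members. The 7 myoblast markers, all tested, had 6 below 0, or 5 of 6 without Myf5, which reached the minimum mean only through WT. Their summed signal was 191.1 to 236.1 RPKM in WT and 115.5 to 127.3 RPKM in eIF5A-KO. Of 12 fibroblast markers 11 were tested, 8 above 0, with sums of 365.3 to 544.2 RPKM in WT and 441.5 to 961.6 RPKM in eIF5A-KO, the highest being replicate 1. Of 11 endothelial markers 10 were tested, 9 above 0, with sums of 267.5 to 380.1 RPKM in WT and 390.9 to 448.7 RPKM in eIF5A-KO. Of 10 immune markers 6 were tested, 4 below 0, or 3 of 5 without Laptm5, which reached the minimum mean only through WT. Their sums were 49.5 to 77.6 RPKM in WT and 52.0 to 69.2 RPKM in eIF5A-KO, and Itgam was at 0 throughout. Myoblast and endothelial sums did not overlap between groups, the former being lower and the latter higher in eIF5A-KO, which was not tested. The endothelial gap was small, from 380.1 RPKM in WT to 390.9 RPKM in eIF5A-KO. Of all tested single genes, 20.3% did not overlap with eIF5A-KO the lower and 20.1% with it the higher. Without Myod1 and Des the other 5 myoblast markers summed to 50.2 and 33.4 RPKM in WT and 53.1 and 26.0 RPKM in eIF5A-KO, and the groups overlapped, a split chosen after seeing the values. Within these 5, Pax7 (-1.59), Myf5 (-2.09), Cdh15 (-0.74) and Itga7 (-0.02) were below 0 on the log2 scale and Vcam1 (0.92) above. At an unadjusted p under 0.05 by limma, Pax7, Des and Myf5 were lower, and Myf5, which entered only through WT, had to be. In the other marker lists Lyz2 (immune) was lower, and Adgre1 (immune), Postn (fibroblast) and Kdr (endothelial) were higher. All tested genes gave 4.46% lower and 2.86% higher, and no marker passed at an adjusted p under 0.05. The part of the other cells in the values of the members was not tested.

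The tested protein-coding genes with a profile most like that of the leading member of each class were named by distance. The leading member was that of highest mean RPKM per gene model, while per coding length Tcf4 rather than Tcf3 led the E proteins. The distance was Euclidean, between log2(RPKM + 1) values centred on their mean over the 4 libraries, among 2555 genes whose mean was 10 RPKM or more. Nearest to Id3 were Cope (0.0311), S1pr1 (0.0488) and Gclc (0.0733), each highest in WT replicate 2. Nearest to Tcf3 were Klf9 (0.0595), Eaf1 (0.107) and Rab31 (0.142), each lowest in eIF5A-KO replicate 1. Nearest to Twist1 were Itpripl2 (0.188), Slc6a8 (0.194) and Kansl2 (0.204). Over 4 libraries, a short distance says only that the values moved alike.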

How the data were processed

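RNA of 4 libraries was sequenced (ribosome profiling by the extraction text, Polysome-Seq by the titles), and the authors deposited RPKM values per gene and library. Per the study's methods, low-quality, rRNA and tRNA reads were removed, the rest were mapped with Tophat2 to an Ensembl annotation and counted with HTSeq. The labels name build mm10. Strand handling is not given in the sources used here. RPKM times gene length was a whole multiple of 1 step for 100% of values (tolerance 0.01 reads), which gave whole reads. The library size in the RPKM was not the read total. Groups came from the titles.

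Tests used limma 3.58.1 in R 4.3.3 (lmFit, eBayes with trend=TRUE) after log2 transformation of RPKM plus a pseudocount of 1. The 11363 genes whose mean reached 1 RPKM entered, p-values were adjusted over all of them by Benjamini-Hochberg, and the threshold was 0.05. The script was tested on simulated data. An exact two-sided permutation test of 2 against 2 libraries cannot go below 0.333. The floor of 3 reads covers counting error only. Named genes were all 9 members, Myod1, Eif5a, per list the genes at an unadjusted p under 0.05 (up to 4 by size of change) or else the 2 of highest mean RPKM, and the 3 nearest profiles of each leading member. The members and lists were chosen with earlier results of these data known. Coding sequences were APPRIS principal transcripts of GENCODE M21, to which 99.7% of gene identifiers matched. Alternatives were another pseudocount, filter, scaling or trend setting, protein-coding genes only, limma-voom, removal of the GC trend, the replicate block and each library left out. A gene of the lists that the rule names is not reported here.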

Additional observations from a re-analysis of the deposited data

How the results depend on the processing

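With 11 to 414 reads per library and tested member and 2 libraries a group, only large changes could be resolved. No member passed at an adjusted p under 0.05 under any alternative it was tested in, which were 15 for each of the 7 but Tcf12, left out by the minimum mean of 5 RPKM. Id2, Tcf3 and Twist1 were below 0 in all 15, but came as near to it as -0.53 (Id2) and -0.00591 (Tcf3) with the same sum, which relative to the shifted median are -0.998 and -0.48, and -0.0491 (Twist1) with the GC trend removed. Signs changed for values near 0. With libraries scaled to the same sum of reads, which moved the median of all genes to 0.47, Tcf12 was 0.31, Id1 0.39 and Id3 0.57, or -0.16, -0.08 and 0.09 relative to that median. Quantile normalization gave 0.0339 for Id1 and 0.60 for Id3. Removal of the GC trend gave 0.29 for Id1 and 0.42 for Id3. Tcf4 was -0.0482 when that sum was taken over protein-coding genes. With each library left out, Tcf4 ran from -0.0944 to 0.20, Tcf12 from -0.50 to 0.12, Id1 from -0.45 to 0.00967 and Id3 from -0.26 to 0.17. A limma fit without 1 library assumes that the lone library varies like the other group.

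The 1 member at an unadjusted p under 0.05 (Id2) became 0 with the same sum, quantile normalization, trend=FALSE, the replicate block, and each library left out (0 to 0). With quantile normalization, trend=FALSE and the replicate block its log2 fold change was still -1.09, at an unadjusted p of 0.0537, 0.0693 and 0.0668 by limma. The replicate numbers pair nothing that the labels name. The differences between replicates 1 and 2 in WT and in eIF5A-KO had a correlation of 0.0575 over genes, and the replicate block changed no adjusted call of a member.

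Over all genes, limma called 11 lower and 1 higher after adjustment, and both counts became 0 with pseudocount 0.1, a minimum mean of 5 RPKM, every gene above 0, the same sum, trend=FALSE, protein-coding genes only, removal of the GC trend, the replicate block and each library left out (0 to 0). Limma-voom gave 39 lower and 0 higher. By the unadjusted p, 507 lower and 325 higher became 327 and 178 (minimum mean of 5 RPKM) and 170 and 1684 (same sum), and 330 were lower with the GC trend removed. The lower genes numbered 225 without eIF5A-KO replicate 1, 320 without eIF5A-KO replicate 2 and 791 without WT replicate 2, and the higher genes 205 without eIF5A-KO replicate 1 and 809 without WT replicate 2, the lowest and highest counts with a library left out. Fewer genes enter the stricter filters; the cause was not tested otherwise.

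Of the genes in the lists, 0 passed at an adjusted p under 0.05 by limma and 2 by limma-voom (Smad6 and Chrna1). At an unadjusted p under 0.05 there were 11, 6 with a minimum mean of 5 RPKM, and from 3 to 13 without 1 library (7 without WT replicate 1, 3 without eIF5A-KO replicate 1, 6 without eIF5A-KO replicate 2). With the same sum, list medians were 0.33 for repressors and modifiers, 0.16 for BMP and Smad genes, 0.36 for coactivators and -0.88 for targets of the dimers. Relative to the median of all tested genes, which that scaling moved to 0.47, they were -0.14, -0.31, -0.11 and -1.35 in that order. The BMP and Smad median was -0.12 with a minimum mean of 5 RPKM and from -0.45 to -0.0776 without 1 library, and that of the targets from -1.42 to -0.94.

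Summed signal, as a log2 change, went from -0.27 to 0.31 (E proteins), from -0.14 to 0.49 (Id) and from -0.72 to -0.0954 (Twist) with the same sum. That scaling moved the median of all tested genes to 0.47. Without it, the E protein sum per coding length was at -0.0889. The sums lay between -0.44 and -0.0919 (E proteins), between -0.33 and 0.0714 (Id) and between -1.33 and -0.30 (Twist) without 1 library. The difference in the log2 ratio of E protein to Id signal was -0.14, and from -0.52 to 0.23 without 1 library. It was 0.27 without the members of highest mean RPKM (Tcf3 and Id3), and the part of each of them was not tested. The scale per coding length was chosen after seeing the data.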
